A study of Homo sapiens with 14 samples.

Results

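The expression of 5 regulators was followed through 14 RNA-seq libraries of one breast cancer cell line: the HES and HEY repressors HES1, HES4 and HEY1 and the SOX factors SOX4 and SOX9. They are 5 of 60876 annotated genes, and they were picked because earlier results on the same libraries had shown them to change, so their levels are a description and carry no test. The line was MDA-MB-231, an established triple-negative line, and poly(A) RNA was sequenced to see what a ribosome biogenesis inhibitor does to other transcripts. The 7 groups held 2 libraries each: a control, 5 µM RBI2 labelled 10, 30 or 120 min, and 5 µM CX-5461 labelled 10, 30 or 120 min. All groups share the one line. CX-5461 is a known inhibitor of RNA polymerase I, and RBI2 is a compound that lowers precursor ribosomal RNA. The control is given as untreated in one place of the study's text and as receiving the solvent DMSO in another. The deposited data carry the numbers 2, 10 and 30 where the sample labels read 10, 30 and 120 min, so every time named here is that of the label. Nothing says that replicates came from separate cultures, so p-values measure only the spread between these libraries, which may be technical.

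HES and HEY proteins are basic helix-loop-helix repressors. In the canonical Notch pathway a ligand on one cell binds a receptor on its neighbour, the receptor is cleaved, and its intracellular piece joins RBPJ on DNA to switch on HES and HEY genes. HES1 protein represses its own promoter, and its mRNA is short-lived. SOX factors bind DNA through an HMG box and act in progenitor cells of many epithelia. SOX9 is known for cartilage and for mammary progenitors, and SOX4 for its place downstream of TGF-beta in breast cancer cells.

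On GRCh38, GENCODE release 44 places HES1 (ENSG00000114315) at chr3:194136148-194138732 on the plus strand and HES4 (ENSG00000188290) at chr1:998962-1000172 on the minus strand. SOX4 (ENSG00000124766) lies at chr6:21593751-21598619 and SOX9 (ENSG00000125398) at chr17:72121020-72126416, both on the plus strand. The SOX9 gene overlaps SOX9-AS1 on the opposite strand, which held between 7.2 and 23.3 estimated reads in a library.

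The 250 bases upstream of the RefSeq start (GRCh38.p14) are shown for HES1, HES4 and SOX4, because RBPJ acts through such promoters; 3 of the 5 genes matched an entry. Each is read 5′ to 3′ on the gene's own strand, and capitals mark the letters TGGGAA, the core RBPJ site, on that strand.
HES1: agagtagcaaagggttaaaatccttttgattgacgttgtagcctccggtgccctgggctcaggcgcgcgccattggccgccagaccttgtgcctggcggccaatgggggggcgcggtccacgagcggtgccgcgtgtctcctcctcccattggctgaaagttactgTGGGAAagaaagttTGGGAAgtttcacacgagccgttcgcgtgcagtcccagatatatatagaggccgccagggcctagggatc
HES4: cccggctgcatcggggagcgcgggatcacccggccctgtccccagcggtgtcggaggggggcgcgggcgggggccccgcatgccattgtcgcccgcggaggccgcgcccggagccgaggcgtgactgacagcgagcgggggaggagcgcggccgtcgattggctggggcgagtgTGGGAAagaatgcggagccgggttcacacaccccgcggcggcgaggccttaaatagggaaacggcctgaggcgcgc
SOX4: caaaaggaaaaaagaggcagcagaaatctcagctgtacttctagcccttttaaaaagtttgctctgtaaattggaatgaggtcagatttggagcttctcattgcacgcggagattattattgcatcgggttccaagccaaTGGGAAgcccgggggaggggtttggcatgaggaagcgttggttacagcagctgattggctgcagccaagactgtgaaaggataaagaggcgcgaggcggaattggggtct
These windows are chr3:194135898-194136147 (plus strand), chr1:1000098-1000347 (minus strand) and chr6:21593501-21593750 (plus strand).

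The HES1 window held TGGGAA at 84 to 79 and again at 70 to 65 bases upstream of the start. The HES4 window held it at 76 to 71 bases and the SOX4 window at 110 to 105 bases. Searched on both strands, at least 1 match stood in 20.85% of 35114 promoter windows of this length, and 2 or more in 2.9%. CACNAG, the N box to which HES proteins bind, matched 3 times in HES1 and 0 times in HES4 and SOX4, against 32.04% of windows with a match. CACGNG, the class C site of the same family, matched 4 times in HES1, 1 time in SOX4 and 0 times in HES4, against 26.67% of windows. In HES1 some N box and class C matches overlap each other. CCAAT matched 3 times in HES1, 1 time in HES4 and 4 times in SOX4, against 32.01% of windows. CANNTG, the E box, matched 2 times in SOX4 and GGGCGG, the GC box, 1 time in HES4, against 61.82% and 42.64% of windows. These shares count windows with at least 1 match. At 2 or more matches the share was 6.32% for the N box and 6.24% for the class C site. For CCAAT it was 9.53% and for the E box 28.27%. TATAAA and the CRE TGACGTCA, present in 10.72% and 1.65% of windows, matched in none of the 3. GC content was 59.2%, 74.8% and 48.8% for HES1, HES4 and SOX4. A match is a description of the letters and not a bound site.

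Library totals ran from 14112299 to 24849354 estimated reads (median 16305236). Control replicate 2 stood apart: 20.6% of its reads were mitochondrial, against 8.14% to 11.3% in the other 13 libraries. The control replicates had 1412 genes more than 2-fold apart, against 461 to 629 in the treated pairs. Every comparison with the control rests on this library, so folds are given below with and without it where it matters. Over the 6 comparisons with the control all genes together had 558 calls, against 6238 without control replicate 1 and 339 without control replicate 2. The line's own markers were present, with VIM between 2084 and 2694 TPM and CD44 between 472 and 750 TPM, while of the luminal markers ESR1, FOXA1 and CDH1 stayed at or below 0.285 TPM and PGR was at 0. GATA3 and EPCAM, luminal markers too, were present at 1.82 to 3.48 TPM and 11.4 to 22.4 TPM. The leukocyte markers PTPRC and CD3E and the endothelial markers PECAM1, VWF and CDH5 were at or below 0.179 TPM. Of the fibroblast markers, DCN was at or below 0.156 TPM, COL1A1 lay between 0.675 and 2.16 TPM and PDGFRB between 0.738 and 2.86 TPM.

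The members differed widely in abundance. Per length, HES1 and SOX9 had close means over all libraries, 36.3 and 34.0 TPM, and HES4 followed at 8.21 TPM. Within groups HES1 and SOX9 were not alike, at 18.75 and 41.54 TPM in the control and 58.2 and 25.0 TPM in RBI2 at 10 min. HEY1 and SOX4 were close to absent, at 0.477 and 0.0580 TPM. A gene was tested only with enough reads in at least 2 libraries, which 4 of the 5 genes met. HEY1 reached 10 reads in 3 libraries and passed mainly through CX-5461 at 10 min, where it was high. SOX4 reached 10 reads in 1 library and was not tested.

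**Figure D1:**
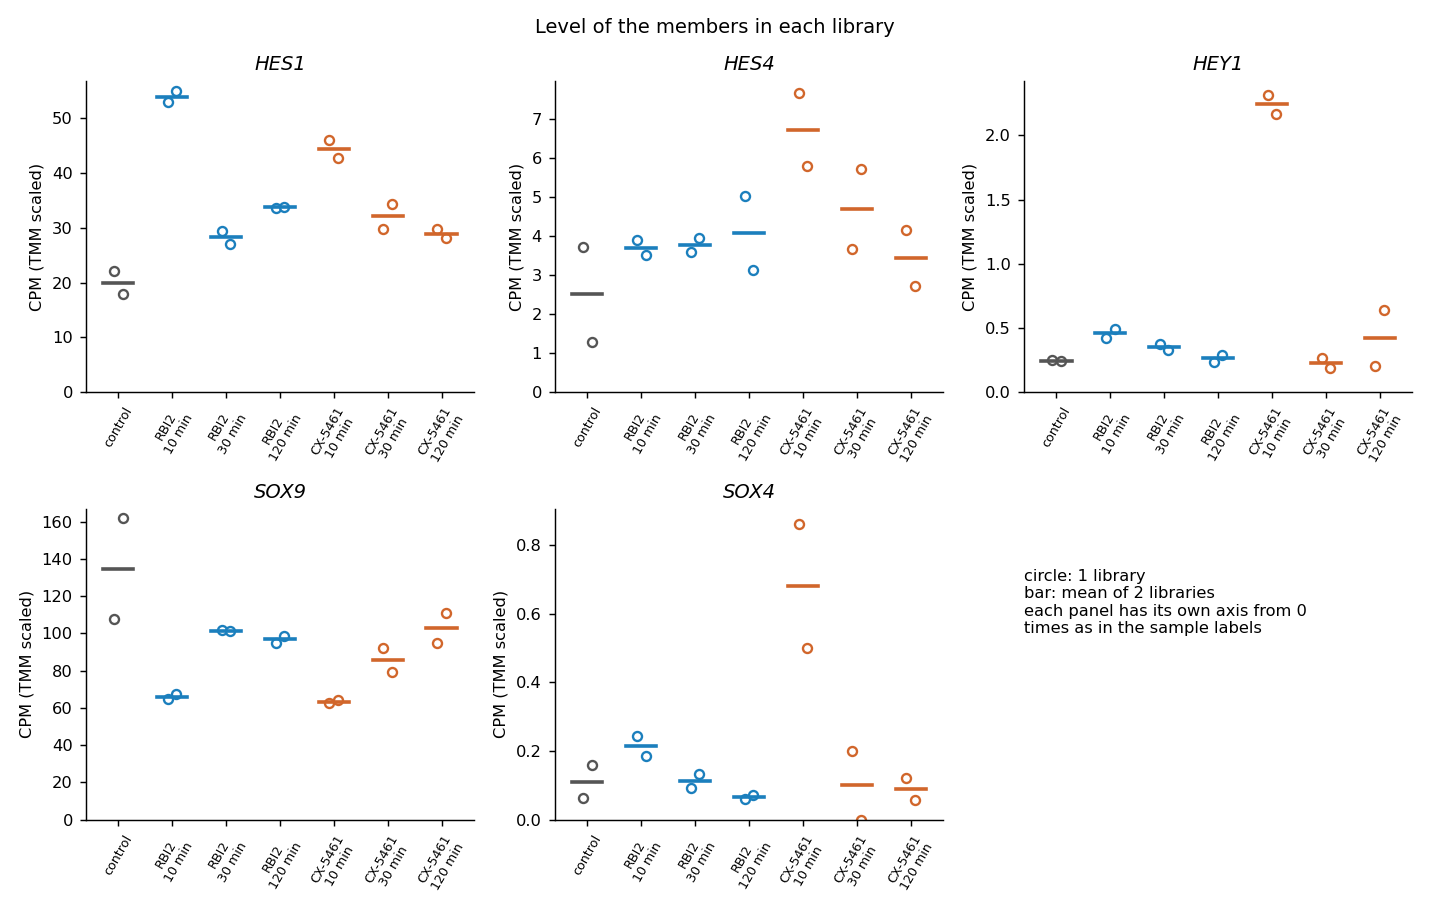
Level of each gene in every library, as TMM-scaled CPM on a linear axis from 0, by group; points are the 2 libraries and bars their mean. HES1 is lowest in the control and highest in RBI2 at 10 min (52.9 and 55.0 CPM), and SOX9 is lowest at 10 min with either compound.

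HES1 lay above the control in all 6 treated groups, and most at 10 min. It is the best known Notch target and represses differentiation genes. Levels are given as CPM, counts scaled by TMM library size. HES1 was at 22.1 and 17.9 CPM in the control, from 355 and 224 reads. It was at 52.9 and 55.0 CPM in RBI2 at 10 min, then 29.5 and 27.1 CPM at 30 min and 33.6 and 33.9 CPM at 120 min. In CX-5461 it was at 46.1 and 42.7 CPM at 10 min, 29.8 and 34.4 CPM at 30 min, and 29.7 and 28.1 CPM at 120 min. Both treated libraries stood above both control libraries in every group, and the 10 min groups stood above all others. The order of the group means ran from the control (20.0 CPM ± 2.95, SD, n = 2) through RBI2 at 30 min, CX-5461 at 120 min, CX-5461 at 30 min and RBI2 at 120 min to CX-5461 at 10 min (44.4 CPM ± 2.43, SD, n = 2) and RBI2 at 10 min (54.0 CPM ± 1.44, SD, n = 2). Within that order RBI2 at 30 min overlapped CX-5461 at 120 min, and the CX-5461 libraries at 30 min overlapped those of RBI2 at 120 min.

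The HES1 fold over the control was 2.69 in RBI2 at 10 min, a log2 fold change of 1.43 (SE 0.11), and 1.15 on the log2 scale (SE 0.11) in CX-5461 at 10 min. Later log2 fold changes were 0.50 and 0.75 in RBI2 at 30 and 120 min and 0.68 and 0.53 in CX-5461. Without control replicate 2 or any other single library the value at 10 min stayed between 1.27 and 1.59 for RBI2 and between 1.01 and 1.31 for CX-5461. In these bulk samples more cells with HES1 RNA and more HES1 RNA per cell cannot be told apart.

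HES4 in CPM stood clear of the control only in CX-5461 at 10 min, and its control libraries were far apart. HES4 is a HES relative that mice lack. It was at 3.73 and 1.28 CPM in the control, from 60 and 16 reads. It was at 3.89 and 3.52 CPM in RBI2 at 10 min, 3.60 and 3.96 CPM at 30 min, and 5.02 and 3.12 CPM at 120 min. In CX-5461 it was at 7.65 and 5.78 CPM at 10 min, 3.66 and 5.73 CPM at 30 min, and 4.16 and 2.72 CPM at 120 min. In CPM only CX-5461 at 10 min (6.72 CPM ± 1.32, SD, n = 2) stood clear of the control (2.50 CPM ± 1.73, SD, n = 2), and among neighbours in the order of the means it was the only group that did not overlap the next. In the authors' TPM the control libraries were at 8.20 and 3.56 TPM, and both CX-5461 at 10 min (14.5 and 10.4 TPM) and RBI2 at 30 min (9.20 and 8.47 TPM) stood above them.

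The log2 fold change of HES4 in CX-5461 at 10 min was 1.38 (SE 0.41) and did not pass. It was 0.85 without control replicate 2 and 2.39 without control replicate 1. In RBI2 at 10 min it was 0.53 (SE 0.43), and it was −0.03 and 1.53 without replicate 2 and replicate 1 of the control. Without control replicate 1 the HES4 log2 fold changes ran from 1.44 to 2.39 over the 6 comparisons with the control. Without control replicate 2 they ran from −0.12 to 0.85. The fit without replicate 1 rests on 1 control library, and calls over all genes rose in it too. Most HES4 values passed in that fit, and nothing is read from this. HES4 has the highest GC content of the 5 genes, with 74.0% over its transcripts against 46.72% to 52.52% in the others, and a correction for GC content and length gave 0.78 in CX-5461 at 10 min. The effective length of its main transcript HES4-201 was 330.8 bases in control replicate 2 and 592.8 to 831.6 bases in the other libraries. The part of these in the low control value was not tested.

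HEY1 was almost silent except in CX-5461 at 10 min. HEY1 (ENSG00000164683) lies at chr8:79762371-79767857 on the minus strand and is a Notch target best known in endothelium and heart. It had 4 and 3 reads in the control, 7 and 8 reads in RBI2 at 10 min, then 8 and 5 reads at 30 min and 4 and 4 reads at 120 min. In CX-5461 it had 43 and 39 reads at 10 min, then 4 and 3 reads at 30 min and 5 and 11 reads at 120 min. That is 2.32 and 2.17 CPM in CX-5461 at 10 min, against 0.249 and 0.240 CPM in the control and at most 0.637 CPM in any other library. The CX-5461 libraries at 10 min lay apart from the other 12. RBI2 at 10 min (0.460 CPM ± 0.0489, SD, n = 2) came next in the order of means but overlapped the group below it, since CX-5461 at 120 min ran from 0.204 to 0.637 CPM.

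Per read assigned, HEY1 was 9.93 times as frequent in CX-5461 at 10 min as in the control (95% exact counting interval 4.61 to 25.5) and 2.03 times in RBI2 at 10 min (0.778 to 5.87). Such intervals cover counting error only. The fitted log2 fold change was 3.16 (SE 0.49) in CX-5461 at 10 min and 0.89 (SE 0.56) in RBI2 at 10 min. In the CX-5461 libraries at 10 min one protein-coding transcript, HEY1-202, carried 84.9% and 83.2% of the gene's reads.

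SOX9 lay lowest at 10 min with both compounds and nearer the control later. It was at 107.5 and 161.9 CPM in the control, from 1729 and 2027 reads. It was at 64.9 and 67.3 CPM in RBI2 at 10 min, 101.7 and 101.1 CPM at 30 min, and 95.1 and 98.5 CPM at 120 min. In CX-5461 it was at 62.5 and 64.1 CPM at 10 min, 92.3 and 79.3 CPM at 30 min, and 94.7 and 110.9 CPM at 120 min. Both libraries lay below both control libraries in every treated group except CX-5461 at 120 min, which overlapped the control. From the bottom, the order ran CX-5461 at 10 min (63.3 CPM ± 1.12, SD, n = 2), RBI2 at 10 min (66.1 CPM ± 1.72, SD, n = 2), CX-5461 at 30 min and RBI2 at 120 min, each without overlap with the next. RBI2 at 30 min, CX-5461 at 120 min and the control (135 CPM ± 38.5, SD, n = 2) overlapped their neighbours.

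The log2 fold change of SOX9 was −1.02 (SE 0.16) in RBI2 and −1.09 (SE 0.16) in CX-5461 at 10 min. Without control replicate 2 it was −0.72 and −0.76, and without control replicate 1 it was −1.30 and −1.36, so how far SOX9 lay below the control depended on the control library. With one library left out, the RBI2 value passed the fold limit and the test in 2 of 14 fits and the CX-5461 value in 13. The CX-5461 call also ended with the length offset (−0.97), with the GC and length correction (−0.98) and in the 4-library fit. In the authors' TPM the control libraries were together, at 41.53 and 41.54 TPM, and the 10 min libraries stood at 25.2 and 24.8 TPM in RBI2 and 24.4 and 25.1 TPM in CX-5461. On that scale RBI2 at 30 min was level with the control, at 41.6 and 42.1 TPM. At the other labels the CPM folds were −0.41 and −0.48 for RBI2 and −0.65 and −0.39 for CX-5461, on the log2 scale. Without control replicate 2, RBI2 gave −0.09 at 30 min and −0.16 at 120 min, and CX-5461 gave −0.31 and −0.09. Without control replicate 1, CX-5461 gave −0.92 at 30 min and −0.66 at 120 min, and RBI2 gave −0.68 and −0.75.

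SOX4 was near the limit of detection, and it too was highest in CX-5461 at 10 min. It had 1 and 2 reads in the control, 4 and 3 reads in RBI2 at 10 min, then 2 and 2 reads at 30 min and 1 and 1 reads at 120 min. In CX-5461 it had 16 and 9 reads at 10 min, then 3 and 0 reads at 30 min and 3 and 1 reads at 120 min. The libraries of CX-5461 at 10 min, at 0.862 and 0.50 CPM, lay above the 12 others, and those of RBI2 at 10 min, at 0.243 and 0.185 CPM, lay above the control libraries at 0.0622 and 0.160 CPM. The remaining groups overlapped the control. With 25 reads against 3, the ratio to the control per assigned read was 7.07 in CX-5461 at 10 min (95% exact counting interval 2.16 to 36.6), and with 7 against 3 it was 2.21 in RBI2 at 10 min (0.504 to 13.2).

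**Figure D2:**
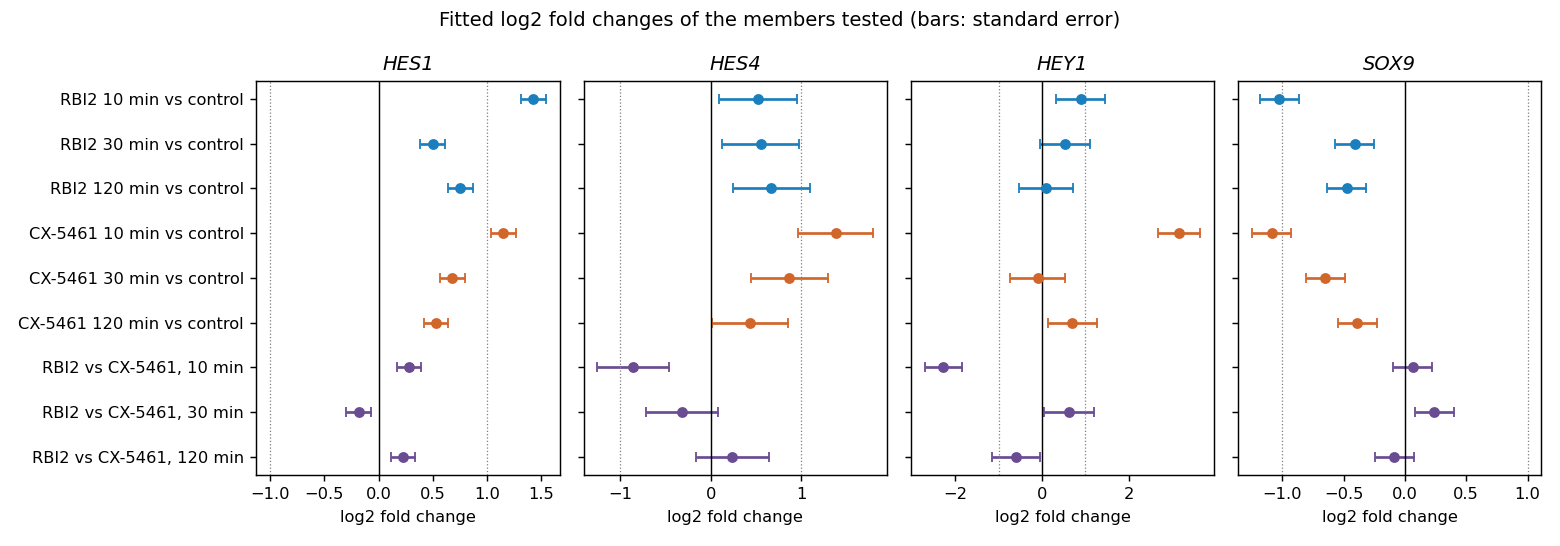
Log2 fold change of the 4 tested genes of each treated group against the control and of RBI2 against CX-5461 at each label, from the edgeR model over all 14 libraries, with bars for the standard error and dotted lines at the fold limit. Against the control HES1 lies above 0 and SOX9 below 0 in all 6 groups, while HEY1 stands apart in CX-5461 at 10 min (3.16).

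The expression model was applied to all genes, and a gene counted as called with an adjusted p under 0.05 and a log2 fold change of at least 1 in either direction. Because these genes were chosen for such changes, the counts describe them and nothing is read from them. In RBI2 at 10 min 2 of the 4 tested genes were called, HES1 higher and SOX9 lower, beside 0.0778% of the 15426 genes tested (0.0583% higher and 0.0194% lower). In CX-5461 at 10 min 3 of the 4 were called, HES1 and HEY1 higher and SOX9 lower, beside 1.64% of all genes (0.752% higher and 0.888% lower). HEY1 had entered the fit through the CX-5461 libraries at 10 min, where it is high, so its call there is a description only. At 30 and 120 min no member was called by edgeR or by DESeq2 with either compound, beside 0.0389% and 1.82% of all genes called in RBI2 at 30 and 120 min, and 0% and 0.0454% in CX-5461. In each of these 4 comparisons 2 of the 4 were under an unadjusted p of 0.05, beside 25.8% and 35.9% of all genes in RBI2 and 22.9% and 12.4% in CX-5461. The median log2 fold change of the tested members was 0.71, 0.51 and 0.38 in RBI2 and 1.27, 0.29 and 0.48 in CX-5461 at 10, 30 and 120 min. The same median over all genes lay between −0.05 and 0.06. All 6 comparisons share the control libraries.

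Members were also counted by whether both libraries lay above, or both below, both control libraries. SOX4 is included in these counts, although it is not among the tested genes that give the shares. In RBI2 at 10 min 3 members (HES1, HEY1, SOX4) stood above and 1 (SOX9) below the control, where 18.2% and 16.2% of all tested genes did. In CX-5461 at 10 min 4 stood above and SOX9 below, where 23% and 24% of all genes did. In RBI2 at 30 min HES1 and HEY1 were above and SOX9 below, beside 26.3% and 25%. HES1 alone was above in RBI2 at 120 min, CX-5461 at 30 min and CX-5461 at 120 min, beside 27.2%, 19.8% and 19.4%. SOX9 was below in RBI2 at 120 min and CX-5461 at 30 min, beside 27.7% and 20%, and at 120 min of CX-5461 no member was below, beside 13.7%.

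RBI2 and CX-5461 were compared directly at each label and the same dose. The members were chosen with results known, so their intervals describe the fit and test nothing. HEY1 at 10 min was lower in RBI2 than in CX-5461 by 2.27 on the log2 scale (95% interval −3.23 to −1.31). It was past the limits of a call, as 1.04% of all genes were, but it was chosen with this value known and had entered the fit through the CX-5461 libraries at 10 min, so this is a description only. HES1 at 10 min was higher in RBI2 by 0.28 (0.04 to 0.52, an interval not adjusted for the number of genes) and was not called in any of the fits tried, and both RBI2 libraries lay above both CX-5461 libraries, as they did for 30.1% of all genes, while they lay below for 27.3%. HES4 at 10 min differed by −0.86 (−1.73 to 0.01), again with no overlap between the libraries. At 10 min none of the 5 members overlapped: 2 (HES1 and SOX9) were above in RBI2 and 3 (HES4, HEY1 and SOX4) below. SOX9 at 10 min differed by 0.06 (−0.29 to 0.42). No member was called at 30 or 120 min by edgeR or by DESeq2, beside 0.013% and 1.67% of all genes called. At those labels 0 members were under an unadjusted p of 0.05, beside 7.79% and 31.6% of all genes. At those labels HES1 differed by −0.18 (−0.43 to 0.07) and 0.22 (−0.03 to 0.47), and SOX9 by 0.24 (−0.11 to 0.59) and −0.09 (−0.44 to 0.26). The intervals of HES4 and HEY1 at those labels were wider, from −1.81 to 1.89 at their extremes.

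The composition of HES1 transcripts was not itself used to choose the genes. Each share is taken of the HES1 reads, though, and the level of HES1 was used. HES1 has 2 annotated transcripts, the coding HES1-201 and HES1-202, which retains an intron. HES1-202 carried 1.15% and 1.88% of HES1 reads in the control. In RBI2 it carried 0.771% and 0.170% at 10 min, then 2.99% and 1.97% at 30 min, while at 120 min it carried 6.80% and 5.47%. In CX-5461 it carried 0.95% and 0.677% at 10 min, then 0.754% and 1.86% at 30 min, while at 120 min it carried 5.04% and 3.56%. At 120 min of both compounds it was above every control library and every library of the other labels, and at 10 min it was below both control libraries. These shares rest on few reads, 8.28 in the control group, 64.3 in RBI2 at 120 min and 54.0 in CX-5461 at 120 min. At 10 min HES1-202 had 8.24 reads in RBI2 and 13.3 in CX-5461. The lower share at 10 min went with more HES1-201 reads, 1754 in RBI2 and 1611 in CX-5461 against 571 in the control. That lower share is therefore not separate from the choice of HES1. Computed from TPM the group means were 2.03% in the control, 8.69% in RBI2 at 120 min and 6.28% in CX-5461 at 120 min. They are estimates of Salmon between overlapping transcripts, and no test was made. HES4-203, the intron-retaining transcript of HES4, had another pattern and carried 15.3% and 0% of its gene's reads in the control. In CX-5461 it carried 27.8% and 37.0% at 10 min and 18.9% and 38.2% at 120 min. In RBI2 it carried 10.7% and 20.7% at 10 min and 20.0% and 26.8% at 120 min.

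**Figure D3:**
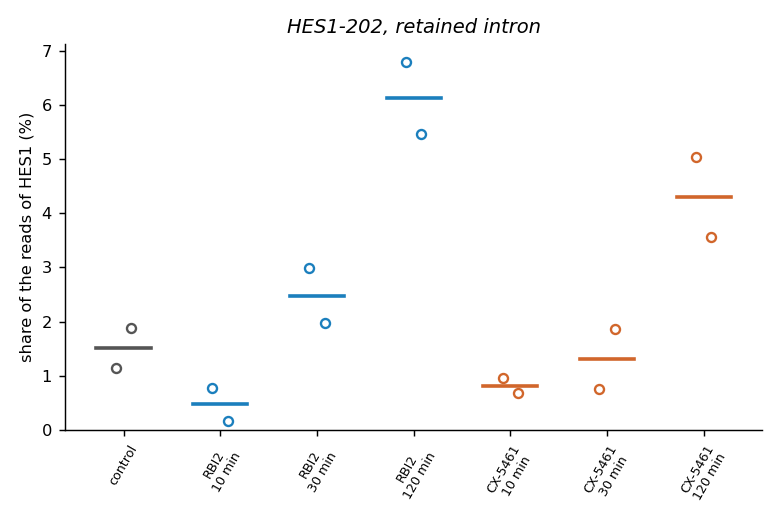
Percent of HES1 reads assigned to the intron-retaining transcript HES1-202 in every library, by group, with bars for the mean of the 2 libraries. The 120 min libraries of RBI2 (6.80% and 5.47%) and CX-5461 (5.04% and 3.56%) stand above all others.

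The other genes of the Notch pathway with calls against the control were NRARP, DLL4 and MAML3 in CX-5461 at 10 min and JAG2 in RBI2 at 120 min. Like the HES and HEY and the SOX lists below, this list was chosen with earlier results of these data known. The calls and p-values of all these list genes are therefore a description. The Notch list held 42 genes, of which 36 were tested: 3 of 5 ligands, all 4 receptors, 11 of 15 genes of glycosylation and turnover, 8 of 8 of cleavage, 9 of 9 nuclear factors and the target NRARP. No list gene was called by edgeR or by DESeq2 in RBI2 at 10 or 30 min or in CX-5461 at 30 or 120 min, where 3, 11, 11 and 5 of the 36 were under an unadjusted p of 0.05, beside 12.9%, 25.8%, 22.9% and 12.4% of all genes. In CX-5461 at 10 min 3 of the 36 were called, beside 1.64% of all genes, and in RBI2 at 120 min 1 of the 36, beside 1.82%. The 3 include DLL4, which passed the filter only through the CX-5461 libraries at 10 min, so nothing is read from that count. The median log2 fold change of the Notch list was −0.03, −0.09 and 0.26 in RBI2 at 10, 30 and 120 min and 0.01, −0.17 and 0.19 in CX-5461, beside all-gene medians within −0.05 and 0.06. POFUT1, which fucosylates the receptors, was the most abundant by CPM (mean 218.7 CPM). Against the control the list had 4 calls in all, 22 without control replicate 1 and 2 without control replicate 2, in fits where the calls over all genes moved as given above.

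NRARP, a Notch target that damps the signal, rose in CX-5461 at 10 min. It was at 3.17 and 2.48 CPM in the control, 2.98 and 3.03 CPM in RBI2 at 10 min, and 9.86 and 8.56 CPM in CX-5461 at 10 min, with no overlap. Its log2 fold change was 1.69 (SE 0.21, Benjamini-Hochberg adjusted p = 0.00114 in edgeR's quasi-likelihood test). It was lower in RBI2 than in CX-5461 at that label by 1.62 on the log2 scale (SE 0.20, adjusted p = 0.00154 in edgeR). DLL4, a ligand, had 33 reads in CX-5461 at 10 min against 1 in the control, a ratio per read assigned of 27.98 (95% exact counting interval 4.68 to 1138). It had at most 6 reads in any other library and passed the filter only through the CX-5461 libraries at 10 min. Its call there is therefore a description only, and its p is not given. MAML3, a coactivator that joins RBPJ and the receptor piece, was at 2.49 and 3.52 CPM in the control and fell to 1.40 and 1.17 CPM in CX-5461 at 10 min, a log2 fold change of −1.21 (SE 0.28, adjusted p = 0.0371 in edgeR). With 1 library left out, MAML3 kept its call in 5 of 14 fits, DLL4 in 3 and NRARP in all 14. Over the 22 alternatives DLL4 was called in 8, with log2 fold changes from 3.71 to 6.95. The call of MAML3 ended without control replicate 2, with DESeq2, with the length offset, in the 4-library fit and with the replicate block, and it held in 8 of 22 alternatives in all.

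At 120 min the calls in this list were other genes, 1 against the control and 1 between the compounds. Of all genes 1.82% and 1.67% were called there, so these counts are near the share of all genes. JAG2, a ligand, rose from 5.72 and 3.28 CPM in the control to 10.7 and 8.48 CPM in RBI2, a log2 fold change of 1.08 (SE 0.22, adjusted p = 0.0153 in edgeR). It was 0.75 without control replicate 2, which ends the call, as leaving out either RBI2 library at 120 min does. A correction for GC content and length gave 0.63 and ended the call too, as did the length offset and a fit to the 4 libraries alone. MIB1, the ubiquitin ligase that lets ligands signal, was at 23.5 and 23.6 CPM in RBI2 and 44.1 and 59.6 CPM in CX-5461, lower in RBI2 by 1.14 on the log2 scale (SE 0.22, adjusted p = 0.0127 in edgeR). MIB1 was at 35.0 and 55.4 CPM in the control, which the CX-5461 libraries overlapped. Its call ended without either RBI2 library at 120 min and without CX-5461 replicate 2, where the difference was −0.87. The GC and length correction, at −0.90 with or without the block, also ended it.

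Of the other HES and HEY relatives with their TLE corepressors, 10 of 15 were tested and only BHLHE40 was called, in RBI2 at 10 min, by edgeR and by DESeq2, beside 0.0778% of all genes. Without control replicate 1 a single control library remained, and HES6 and HEY2 gained calls where calls over all genes rose too, as given above. Nothing is read from these. HEY2 had 12 and 13 reads in CX-5461 at 10 min and at most 6 elsewhere, so it passed the filter only through that group and its calls are no result. BHLHE40 encodes a related repressor that answers to stress and the circadian clock. It was at 20.0 and 21.2 CPM in the control, 58.3 and 59.1 CPM in RBI2 at 10 min, and 31.4 and 27.6 CPM in CX-5461 at 10 min. The log2 fold change was 1.51 in RBI2 (SE 0.10, adjusted p = 0.000104 in edgeR) and 0.52 in CX-5461, under the fold limit (adjusted p = 0.0157 in edgeR). Between the compounds BHLHE40 differed by 0.99, just under the limit (adjusted p = 0.00035 in edgeR). TLE5, a short corepressor relative, was the most abundant of the list (mean 138.9 CPM). The list's medians were 0.27, 0.24 and 0.29 in RBI2 and 0.59, 0.28 and 0.16 in CX-5461 at 10, 30 and 120 min, on the log2 scale.

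Among 17 other SOX genes, 5 were tested (SOX7, SOX12, SOX13, SOX15 and SOX18). None was called by edgeR or by DESeq2 against the control, beside 0% to 1.82% of all genes by edgeR. Of the 5, between 0 and 2 were under an unadjusted p of 0.05 in a comparison, beside 12.4% to 35.9% of all genes. Without control replicate 1 a single control library remained and calls rose over all genes, as given above. The calls of SOX15 and SOX18 in that fit are no result. SOX12 was the most abundant (mean 45.1 CPM). The list's median log2 fold changes were 0.07, 0.38 and 0.52 in RBI2 and 0.09, 0.15 and 0.15 in CX-5461.

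**Figure D4:**
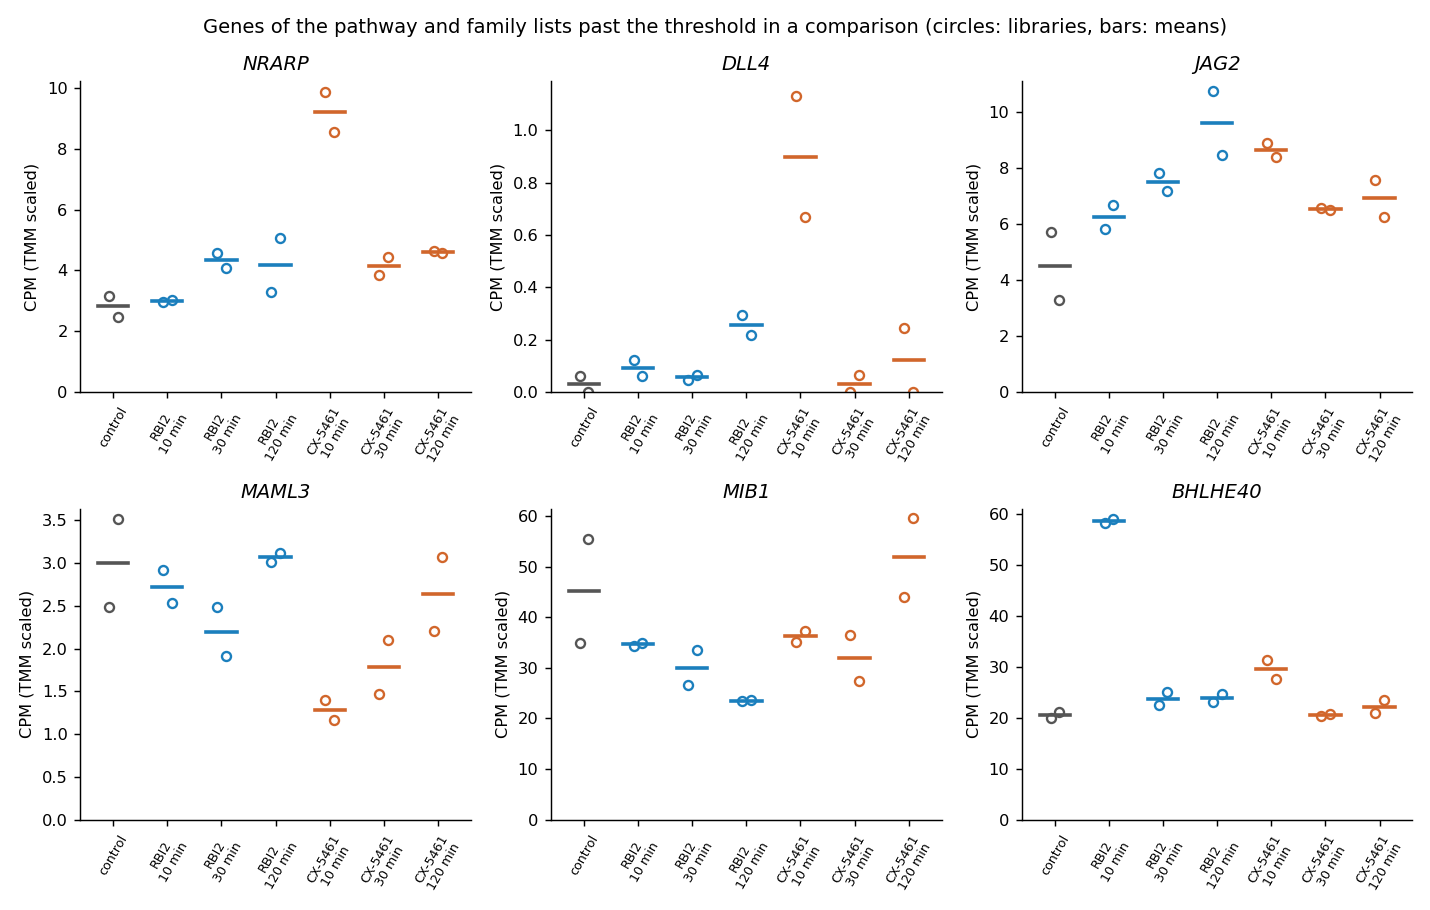
Level in every library of the 6 list genes called in a comparison, as TMM-scaled CPM on axes from 0, by group. Circles are libraries and bars their mean. DLL4 passed the filter only through CX-5461 at 10 min. NRARP and DLL4 stand highest in CX-5461 at 10 min (9.86 and 8.56 CPM for NRARP) and BHLHE40 in RBI2 at 10 min (58.3 and 59.1 CPM).

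The genes whose pattern over the 7 group means was closest to each member were taken among 10570 genes with at least 5 CPM. Likeness was the root mean square of the differences in log2 CPM after centring each profile, and it is a description. HES1 was closest to CSRNP1, an early-response nuclear factor (0.13), ATOH8, a basic helix-loop-helix factor (0.18), and ENSG00000275993 (0.19). CSRNP1 was at 13.3 CPM in the control, 40.0 CPM in RBI2 and 33.3 CPM in CX-5461 at 10 min, as HES1 was high in both. HES4 was closest to METRNL (0.14), SLC25A29 (0.15) and ARID5A (0.15). HEY1 and SOX4 had at most 43 and 16 reads in a library, and the profiles were taken with a prior count of 2. Their profiles therefore turn mainly on CX-5461 at 10 min, where both were high. HEY1 and SOX4 shared the same 3 neighbours. These were SNAI1, a repressor of E-cadherin (0.31 from HEY1, 0.21 from SOX4), the immediate early factor EGR1 (0.36 and 0.31) and BAMBI, a decoy receptor of TGF-beta signalling (0.38 and 0.25). SNAI1 went from 7.72 CPM in the control to 14.2 CPM in RBI2 and 32.2 CPM in CX-5461 at 10 min. SOX9 was closest to BDNF, a neurotrophin (0.087), SSH2, a cofilin phosphatase (0.11), and H3-7 (0.13). BDNF was at 41.8 CPM in the control, 22.4 CPM in RBI2 and 19.7 CPM in CX-5461 at 10 min. All profiles come from the same libraries, so a shift of one library is common to them, control replicate 2 included.

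**Figure D5:**
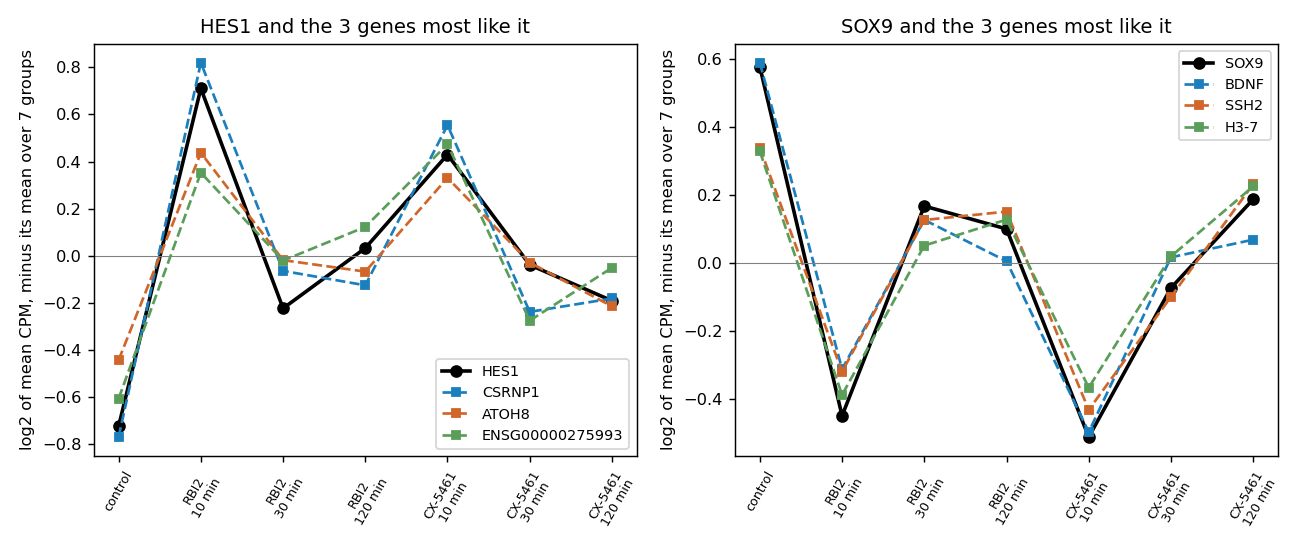
Mean level of HES1, of SOX9 and of the 3 genes closest to each over the 7 groups, as log2 of the mean CPM minus the gene's own mean over the groups; lines join the groups of a gene. HES1 and its neighbours are highest in the 10 min groups and lowest in the control, while SOX9 and its neighbours are lowest at 10 min.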

How the data were processed

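The 5 genes and the lists were chosen with earlier results of these data known. The authors set aside rDNA reads and assigned the rest to GRCh38 transcripts with Salmon (1.3.0 per the submitters' processing notes). The deposited values are estimated counts of reads per transcript, not normalized, and TPM values, with lengths. Groups were taken from the sample labels.

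Estimated counts were summed to genes by GENCODE 44 (225662 of 228754 transcripts matched; the others held 1.03% to 1.13% of reads) and rounded. edgeR 4.0.16 in R 4.3.3 was used with TMM scaling and filterByExpr (minimum count 10), which left 15426 genes. The quasi-likelihood test was fitted to all 14 libraries as 7 groups, and p-values were adjusted by Benjamini-Hochberg within each comparison. The common biological coefficient of variation was 12.3%. The deposited TPM entered no test. Alternatives were DESeq2 1.42.0, its size factors, no filter, a length offset, a replicate block, a GC and length correction, the 4 libraries of a comparison alone, no fold limit, and each library left out.

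Named were the 5 genes, every called gene of the 3 lists, the most abundant gene of each list, and the 3 genes most like each member. The lists left out the members.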

Additional observations from a re-analysis of the deposited data

Results flagged for a closer look

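Of 51 tested genes in the 3 lists, 1 differed between the compounds at 10 min and 1 at 120 min in edgeR's direct comparison. Of all genes 1.04% and 1.67% were called, so with 1 gene each neither count stands apart from the share of all genes. NRARP, the Notch feedback target, was lower in RBI2 at 10 min, with a log2 difference of −1.62. MIB1 was lower in RBI2 at 120 min, with a log2 difference of −1.14. The lists were chosen with earlier results of these data known, so both differences are a description. Their causes were not tested.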

How the results depend on the processing

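No direction of a called value reversed under the alternatives tried. Of 792 values of single members under an alternative, 29 lost a call and 6, all of HES4, gained one. The members called were 2 in RBI2 against the control, 3 in CX-5461 against the control and 1 between the compounds. With an offset for transcript length these were 1 in RBI2, 2 in CX-5461 and 0 between the compounds, and with the GC and length correction 2 in CX-5461. With only the 4 libraries of a comparison they were 0 in RBI2 and 0 in CX-5461. DESeq2 gave 2 in CX-5461, with no adjusted p for HEY1, and 0 between the compounds. Leaving out one library gave 1 to 5 in RBI2, 2 to 5 in CX-5461 and 0 to 1 between the compounds. HES1 kept its calls in all but the 4-library fit. SOX9 in RBI2 at 10 min kept its call in 2 of 14 fits with a library left out, and in CX-5461 in 13 of 14, while the length offset (−0.97), the GC and length correction without (−0.98) and with the block (−0.97) and the 4-library fit (−1.07) ended that call. HEY1 between the compounds at 10 min lost its call without any one of the 4 libraries compared. Over all comparisons the Notch list had 4 calls against the control: 2 with DESeq2, 7 with no filter, 1 with the length offset, 0 with 4 libraries, 2 with the GC and length correction and the block, 14 with no fold limit, and 1 to 22 with a library left out. The HES and HEY relatives had 1: 2 with no filter, 0 with 4 libraries, 3 with no fold limit, and 1 to 9. The other SOX genes had 0: 1 with no filter, 2 with no fold limit, and 0 to 8. The highest of these 3 ranges came without control replicate 1, where calls over all genes rose too, as given above. DESeq2 called 15 to 268 of all genes in a comparison with the control, against 0 to 280 with edgeR. Apart from DESeq2 and the control replicates, no all-gene count stands beside the alternatives, so nothing is read from their list counts. With the replicate number as a block the counts were 2, 3 and 1 for the members, 3 for the Notch list, 1 for the HES and HEY relatives and 0 for the SOX genes. Numbers did not pair the samples: over 21 pairs the correlation of their deviations ran from −0.179 to 0.18, and 3 were over 0.1. Without the 5 CPM minimum, the 3 genes closest to HES4, HEY1 and SOX4 were all replaced. HEY1, SOX4 and DLL4 are limited by depth, at under 50 reads in any library.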
